A study of Homo sapiens with 9 samples.

Results

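UNC5C, its antisense neighbour UNC5C-AS1, the other UNC5 receptors (UNC5A, UNC5B and UNC5D), the receptor DCC and the ligands NTN1 and NTN4 were followed through 9 tumour libraries. These 8 genes were taken by gene identifier out of the 57820 identifiers in the deposited count tables. UNC5C and UNC5C-AS1 were selected on measured values, because they stood among the genes most raised in tumours with RNF4 and doxycycline (Dox) against tumours with RNF4 and no Dox. The authors' deposited table gives them log2 differences of 4.171 and 5.887 in that comparison, with adjusted p of 0.002921 and 0.0003415, so their values there are described without a test. The other 6 genes were added as their receptor family and ligands. The filter on low counts, applied to the whole table, kept 7 of the 8 members and 18618 genes in all, and removed UNC5A.

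Netrins are secreted proteins related to laminins that guide growing axons, blood vessels and migrating cells. Attraction to netrin-1 runs through DCC and its relative neogenin, and repulsion through the UNC5 receptors, alone or together with DCC. DCC and the UNC5 proteins are also known as dependence receptors, which can promote cell death when no ligand is bound. UNC5C-AS1 is a noncoding transcript read from the opposite strand at the start of UNC5C.

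The tumours grew in immunocompromised nude mice from A375, a widely used melanoma cell line of human origin whose BRAF gene is mutated, and were collected at day 30. Every group carried a stably expressed, Dox-inducible construct, either for RNF4, a ubiquitin ligase that recognises SUMO-modified proteins, or for RNF4 with the C159A change in its RING domain, described as catalytically inactive. The 3 groups of 3 libraries were RNF4 without Dox (T1, T4 and T12), RNF4 with Dox in the drinking water from day 3 (T2, T5 and T13), and the RING mutant with the same Dox treatment (T3, T6 and T14). Each library pooled 2 tumours, and libraries are named by their column because the labels tie columns to groups and not to single samples. The series text names tumours expressing GFP as the control, but titles of the control samples say RNF4 and no Dox, and the titles were followed. With no Dox-treated tumour lacking a construct among the samples used here, Dox and RNF4 cannot be told apart in the first comparison, that of RNF4 with Dox against RNF4 without. The second comparison sets the RING mutant group against RNF4 without Dox and shares its control libraries with the first, and the third is RNF4 against RING mutant, both with Dox. Whether the A375 lines were clones, and the age and sex of the mice, are not given in the sources used here.

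Total counts ran from 16416426 to 28934692 per library, and between 26070 and 29482 genes had counts. Normalised read counts are CPM, the counts of a gene over the library size after scaling by TMM factors, brought to a common total. RNF4 itself was at 33.4, 52.0 and 43.2 CPM in T1, T4 and T12, and the RNF4 libraries with Dox, in the order T2, T5, T13, had 380, 413 and 454 CPM. Among the libraries labelled RING mutant it was at 559 CPM in T6, against 47.0 in T3 and 63.5 in T14, so T3 and T14 go against their label. Ribosomal protein genes took 24.9% of the counts in T1 and 15.2% in T2, and between 6.02% and 8.99% in the other 7 libraries. The 9 melanoma markers summed to between 61.3 and 82.3 CPM with RNF4 and Dox, below the 89.2 to 94.3 CPM of the controls and the 84.5 to 108 CPM of the RING mutant libraries. SOX10, the largest part of each sum, lay between 58.5 and 69.6 CPM in the controls and between 39.0 and 54.9 CPM with RNF4 and Dox. It was between 48.4 and 80.9 CPM in the RING mutant libraries. With RNF4 and Dox, TYRP1 (0.403 to 0.909 CPM) and DCT (0.134 to 0.383 CPM) were instead above all controls. The controls reached 0.353 and 0.128 CPM. The other markers overlapped between these groups. In the first comparison, 2.32% of all genes had non-overlapping groups, in either direction. TYR, the pigment enzyme tyrosinase, had 0 counts in 6 of the 9 libraries and reached 1.48 CPM in T14. The 9 skeletal muscle markers in the table summed to 741 CPM in T14, 199 in T13 and 101 in T2, and to between 13.8 and 39.3 CPM elsewhere. Only the human genome is named for the alignment, so whether such counts come from mouse reads or from human cells was not tested. The part of these markers in the values of UNC5C was not tested either.

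UNC5C lies on chromosome 4 from 95162504 to 95549206 on the minus strand (GRCh38, GENCODE 29), and UNC5C-AS1, a single exon of 3329 bases there, from 95549129 to 95552457 on the plus strand. The genes point away from each other and overlap by 78 bases. RefSeq places the starts at 95548973 for UNC5C and 95549148 for UNC5C-AS1, 175 bases apart and without overlap, and extends UNC5C-AS1 to 95587728. Promoter windows of 250 bases before to 50 after each RefSeq start (GRCh38.p14) were available for 5 of the 8 members, and those of UNC5C and UNC5C-AS1 share 274 bases. A stretch of 30 bases is shown, chr4:95549071-95549100, plus strand, chosen around a motif match that lies between the RefSeq starts and inside both windows. The CCAAT match of both windows is not marked in it. The part of either match in how both genes varied across libraries was not tested. Capitals mark TGACG, which reads CGTCA, a core part of the cyclic AMP response element, on the opposite strand.
match between the starts: atgccttctaacTGACGtctcccgcgagcg

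Motifs were searched on both strands in each of these promoter windows: the TATA box TATAAA, the CCAAT box, the GC box GGGCGG, the full cyclic AMP response element TGACGTCA and its core CGTCA (every full element also holds the core), the AP-1 site TGANTCA and the E-box CACGTG. The CCAAT box and CGTCA each matched once in both windows, and the other 5 motifs had no match. Among 35116 RefSeq promoter windows of the same length, 34.6% hold CCAAT and 24.6% hold CGTCA, so neither match sets the locus apart from many promoters. The other shares are 11.5% for TATAAA, 45% for GGGCGG, 1.85% for TGACGTCA, 7.71% for TGANTCA and 7.26% for CACGTG. The UNC5C window was 63.7% G and C with 22 CpG dinucleotides, and the UNC5C-AS1 window 63.3% with 22, against medians of 58.7% and 14 over all windows. A match describes letters in the DNA and is not a measurement of a bound factor.

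UNC5C, a receptor for repulsion by netrin-1, was at 0.205 CPM in T1, 0.963 in T4 and 0.629 in T12, from 3, 30 and 16 counts. With RNF4 and Dox it was at 8.80 CPM in T2, 10.7 in T5 and 14.1 in T13, from 184, 238 and 340 counts. The lowest library with RNF4 and Dox thus stood above the highest library without Dox, and the means were 11.2 ± 2.67 and 0.599 ± 0.380 CPM (SD, n = 3 each). The fitted log2 difference was 4.14 ± 0.93 (SE), and it is given as a description because it led to the choice of the gene. Non-overlapping groups were found for 2.32% of all genes in this comparison. In bulk tumour RNA, a change in the RNA per cell and a change in the share of cells that carry it cannot be told apart.

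UNC5C-AS1 was high and low in the same libraries. It had 0, 1 and 2 counts in T1, T4 and T12, where the 3 counts that a count of 0 allows in T1 correspond to 0.205 CPM. In T2, T5 and T13 it had 55, 46 and 87 counts, or 2.63, 2.06 and 3.60 CPM. Summed over the groups the counts were 188 against 3, a ratio of CPM of 66.2 with an exact 95% interval from 22.3 to 324, which covers counting error only and is no test between the groups. T12 held 2 of the 3 control counts, and the fitted log2 difference of 5.88 became 6.68 without T12. As for UNC5C, every library with RNF4 and Dox was above every library without Dox.

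At the locus, the RING mutant libraries were split. In T3, T6 and T14, in that order, UNC5C was at 5.10, 4.24 and 0.170 CPM, from 86, 97 and 3 counts, and UNC5C-AS1 at 1.66, 1.40 and 0 CPM, from 28, 32 and 0 counts. T3 and T6 were thus above all 3 libraries without Dox for both genes, and T14 had as few UNC5C counts, 3, as T1. RNF4 was at 559 CPM in T6 and at 63.5 CPM in T14, high and low as UNC5C was. T3, with little RNF4 (47.0 CPM), held more UNC5C than T6. T6 held the most RNF4 of all libraries and less UNC5C than every RNF4 library with Dox (8.80 to 14.1 CPM). The part of RNF4 in the split was not tested. The muscle markers summed to 741 CPM in T14, 19.7 in T3 and 34.9 in T6, and their part in the split was not tested. The 0 counts in T14 allow up to 0.170 CPM of UNC5C-AS1.

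Against RNF4 without Dox, the fitted log2 difference of the RING mutant group was 2.33 ± 0.89 (SE) for UNC5C, with a Benjamini-Hochberg adjusted p of 0.99996 by the quasi-likelihood test of edgeR. For UNC5C-AS1 the counts were 60 and 3, a CPM ratio of 24.8 (exact 95% interval 8.10 to 124, counting error only). UNC5C-AS1 passed the filter through the libraries of RNF4 with Dox and did not pass it over the 6 libraries of this comparison alone, so no test of it is given here. Its fitted log2 difference was 4.45, and 5.25 without T12. The control libraries are those of the comparison that led to the choice of the genes, so these values are not independent of it. UNC5C was not called, and 0% of all genes were called in this comparison. In the authors' deposited table the adjusted p was 0.4688 for UNC5C there. For UNC5C-AS1 the authors' value was 0.01948, which is not taken as support, because the control libraries are those of the choice. With T6 as the only library of the RING mutant group the log2 difference of UNC5C was 2.75.

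Between the Dox-treated groups, RNF4 first, the ranges were 8.80 to 14.1 against 0.170 to 5.10 CPM for UNC5C and 2.06 to 3.60 against 0 to 1.66 CPM for UNC5C-AS1. Both genes were higher in all 3 RNF4 libraries, as a description of values that bore on their choice. The log2 difference was 1.81 ± 0.83 (SE) for UNC5C, or 1.26 without T14. For UNC5C-AS1 it was 1.43 ± 0.90 (SE), or 0.852 without T14. The CPM ratio for UNC5C-AS1 was 2.67 (exact 95% interval 1.98 to 3.63) from 188 and 60 counts. That interval pools the libraries of a group, covers counting error only and is no test between the groups. Non-overlapping groups were found for 4.98% of all genes in this comparison. Against T6 alone, the only RING mutant library with RNF4 above 100 CPM, the log2 difference of UNC5C was 1.39.

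**Figure D1:**
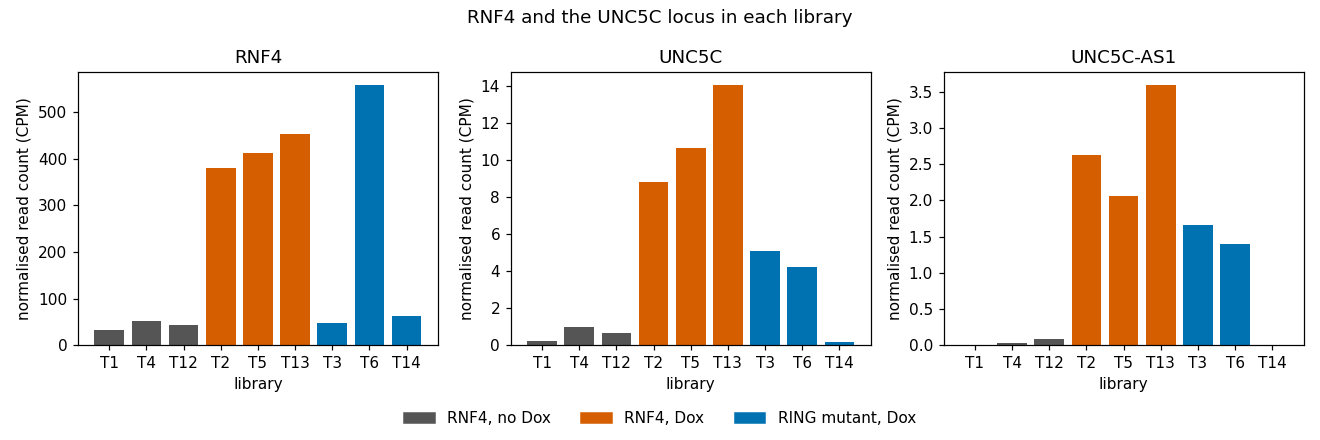
Bars give the normalised read count (CPM) of RNF4, UNC5C and UNC5C-AS1 in each of the 9 libraries, coloured by group, each panel with its own axis from 0. UNC5C and UNC5C-AS1 were low in T1, T4, T12 and T14 and higher in the other 5 libraries, whereas RNF4 was low in T3 as well.

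The column numbers run in sets of 3, one column per group, and the difference at UNC5C was looked at within each set, although no label says that a set was handled together. RNF4 with Dox over RNF4 without Dox was 42.9 in T2 over T1, 11.1 in T5 over T4 and 22.4 in T13 over T12. For the RING mutant the ratio was 24.8 in T3 over T1, 4.41 in T6 over T4 and 0.271 in T14 over T12. The first set, with the largest ratios, has only 3 counts of UNC5C in its control library. RNF4 itself had ratios of 11.4, 7.94 and 10.5 with Dox, and of 1.41, 10.7 and 1.47 in the RING mutant libraries.

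The balance between the overlapping transcripts was read as a share per library. UNC5C-AS1 made up 23.0% of the counts of both genes in T2 (55 of 239, exact Clopper-Pearson 95% interval 17.8% to 28.9%), 16.2% in T5 (12.1% to 21.0%) and 20.4% in T13 (16.7% to 24.5%). In the RING mutant libraries with counts above 100 at the locus, the share was 24.6% in T3 (17.0% to 33.5%) and 24.8% in T6 (17.6% to 33.2%). These 5 intervals overlap one another, and differences among them were not tested. In the controls the share was 3.23% in T4, 1 of 31 counts (0.0816% to 16.7%), an interval below those of T2, T3 and T6, and 11.1% in T12, 2 of 18 counts (1.38% to 34.7%). T1 and T14 had 3 counts of both genes and no UNC5C-AS1, which bounds the share at 70.8%. The library kit keeps strand, but the strand setting of the counting is not given in the sources used here, so reads in the 78 shared bases cannot be assigned to one gene with certainty.

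**Figure D2:**
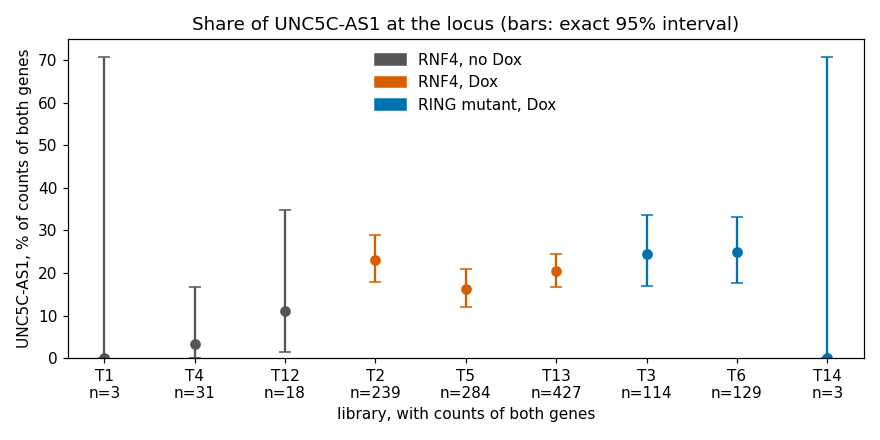
Points give the share of UNC5C-AS1 in the counts of both genes for each library, with exact 95% intervals, and the number of counts of both genes stands under each library. The 5 libraries with more than 100 such counts lie between 16.2% and 24.8%, and the intervals of T1 and T14 reach 70.8%.

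The genes around the locus were read to see whether the neighbourhood moved with UNC5C. Of 23 annotated genes that lie wholly within 2 Mb of UNC5C, 5 passed the filter, 9 had counts and did not pass, and 9 had no counts. Besides UNC5C-AS1 these were SMARCAD1, a chromatin remodeller, HPGDS, a prostaglandin D synthase, PDLIM5, a PDZ and LIM domain protein, and BMPR1B, a receptor for bone morphogenetic proteins. All but UNC5C-AS1 lie beyond the end of UNC5C that is farthest from its start. On the side of the start no gene beyond UNC5C-AS1 was kept, so that side is not described. BMPR1B, which ends 4056 bases from that far end of UNC5C, was at 2.46, 3.11 and 2.28 CPM in T1, T4 and T12. T2, T5 and T13 had 5.21, 3.36 and 2.81 CPM. Those groups overlap, with a log2 difference of 0.53 ± 0.61 (SE) for RNF4 with Dox against without. In T3, T6 and T14 it was at 0.652, 4.07 and 0.909 CPM, so T3 was low for BMPR1B where it was high for UNC5C. Between the Dox-treated groups, RNF4 first, the log2 difference of BMPR1B was 0.996 ± 0.62, with overlapping groups. PDLIM5 differed by 0.08 ± 0.23 and SMARCAD1 by -0.08 ± 0.27 on the log2 scale in the first comparison, both with overlapping groups. HPGDS, from 2 to 15 counts per library, differed by -0.60 ± 0.60 there. In the second comparison HPGDS was lower in all 3 RING mutant libraries than in any control library, as 3.78% of all genes did not overlap there, with a log2 difference of -0.52 ± 0.60. None of SMARCAD1, HPGDS, PDLIM5 and BMPR1B had an unadjusted p below 0.05 in any of the 3 comparisons by the quasi-likelihood test of edgeR.

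**Figure D3:**
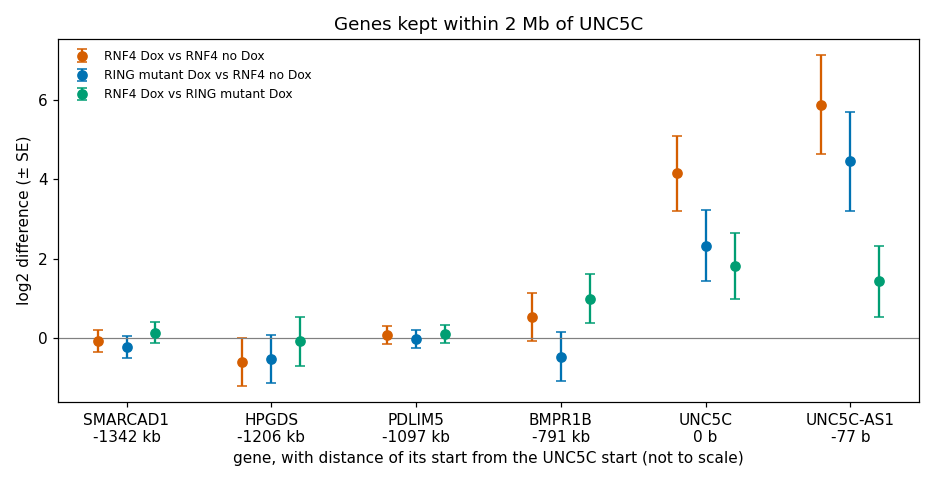
Points give the fitted log2 difference and its standard error in 3 comparisons for UNC5C and the genes kept within 2 Mb, ordered by the distance of their start from that of UNC5C. SMARCAD1, HPGDS, PDLIM5 and BMPR1B all lie between -0.60 and 0.996. UNC5C and UNC5C-AS1 lie apart from them in the first comparison, for which they were chosen, and in the second. In the third, RNF4 against RING mutant with Dox, UNC5C (1.81 ± 0.83) and UNC5C-AS1 (1.43 ± 0.90) overlap with BMPR1B (0.996 ± 0.62) in their standard errors.

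UNC5B and UNC5D did not share the pattern for which UNC5C was chosen, and UNC5A had too few counts to tell. UNC5A (chromosome 5, 176810477 to 176880898) was close to absent, with 12 counts over all libraries, 5 of them in the controls, 6 in the RNF4 libraries with Dox and 1 in T3. At those counts no difference was detectable. UNC5B, the UNC5 receptor known from blood vessels (chromosome 10, 71212570 to 71302864), was at 5.40, 15.7 and 14.3 CPM in T1, T4 and T12 and T2, T5 and T13 had 6.98, 9.32 and 11.4 CPM. In T3, T6 and T14 it was at 4.98, 5.77 and 9.55 CPM. All 3 groups overlap, and the log2 differences were -0.36 ± 0.42 for RNF4 with Dox and -0.81 ± 0.42 for the RING mutant, each against RNF4 without Dox. With T6 as the only RING mutant library the latter was -1.03. The 9 endothelial markers in the table summed to 105 CPM in T1, 152 in T4 and 210 in T12. With RNF4 and Dox the sums were 154 CPM in T2, 143 in T5 and 250 in T13, and the RING mutant libraries had 222 (T3), 121 (T6) and 198 CPM (T14). EMCN was at 0 in T4 and in all 3 RING mutant libraries. The sum was higher in T3, with the least UNC5B, than in T4, with the most. TIE1 (159 against 88.5 CPM), ESAM and ROBO4 were also higher in T3. CDH5 (3.38 against 9.69 CPM), KDR, TEK, CLDN5 and VWF were lower in T3 than in T4. The part of these markers in UNC5B was not tested.

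UNC5D, the receptor that also binds FLRT proteins (chromosome 8, 35235457 to 35796550), was at 0.958, 1.35 and 1.53 CPM in T1, T4 and T12. With RNF4 and Dox it was at 0.526, 1.70 and 0.455 CPM, and it was at 2.84, 1.57 and 1.53 CPM in T3, T6 and T14. RNF4 with Dox thus held the lowest libraries and also T5, above every control, with a log2 difference of -0.52 ± 0.55 that became -1.39 without T5. The RING mutant libraries were all above the controls, a pattern shared by 3.78% of all genes counted in either direction, but T14 and T12 differed by less than 1 count's worth of CPM. Its log2 difference was 0.62 ± 0.54, with a Benjamini-Hochberg adjusted p of 0.99996 by the quasi-likelihood test of edgeR, and it was 0.30 with T6 as the only RING mutant library.

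DCC, the attractive netrin receptor (chromosome 18, 52340172 to 53535903), was at 4.10, 4.75 and 9.04 CPM in T1, T4 and T12. In T2, T5 and T13, with RNF4 and Dox, the values were 5.12, 4.93 and 2.52 CPM. T3, T6 and T14 had 7.82, 10.0 and 7.50 CPM. The RNF4 libraries with Dox overlap with the controls, whereas all 3 were below every RING mutant library, a separation found in 4.98% of all genes counted in either direction. That difference was -1.01 ± 0.39 on the log2 scale, the smallest unadjusted p among the members in that comparison at 0.0264, with a Benjamini-Hochberg adjusted p of 0.99988 by the quasi-likelihood test of edgeR. Against T6 alone it was -1.26. Against RNF4 without Dox the log2 differences were -0.51 ± 0.39 for RNF4 with Dox, or -0.08 without T12, and 0.50 ± 0.38 for the RING mutant. DCC therefore stood on opposite sides of the control mean in the Dox-treated groups, with neither difference called.

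NTN1, which encodes the ligand netrin-1 (chromosome 17, 9021542 to 9244000), varied most among the control libraries, at 0.889 CPM in T1, 7.03 in T4 and 2.87 in T12. T2, T5 and T13 had 3.16, 1.30 and 1.74 CPM, and T3, T6 and T14 had 0.533, 0.525 and 1.31 CPM. T4 alone set the direction of the first comparison, with a log2 difference of -0.82 ± 0.69 that became 0.11 without T4. For the RING mutant against RNF4 without Dox it was -2.20 ± 0.73, with an unadjusted p of 0.0135 and a Benjamini-Hochberg adjusted p of 0.99996 by the quasi-likelihood test of edgeR. That difference was -1.28 without T4 and -2.78 with T6 as the only RING mutant library. Groups overlapped in all 3 comparisons.

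NTN4, the netrin of basement membranes (chromosome 12, 95657807 to 95791152), was the steadiest member. It was at 3.69, 5.39 and 5.07 CPM in T1, T4 and T12, at 3.92, 5.78 and 5.42 CPM with RNF4 and Dox, and at 5.21, 4.68 and 6.36 CPM in the RING mutant libraries. Log2 differences were 0.09 ± 0.29 for RNF4 with Dox and 0.19 ± 0.29 for the RING mutant against RNF4 without Dox, and -0.10 ± 0.29 between the Dox-treated groups. Each was smaller than its standard error. The sign of the first changed without T1 or without T5, and that of the third without T2 or without T14. In the second comparison it changed in 1 alternative, with T6 as the only RING mutant library.

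**Figure D4:**
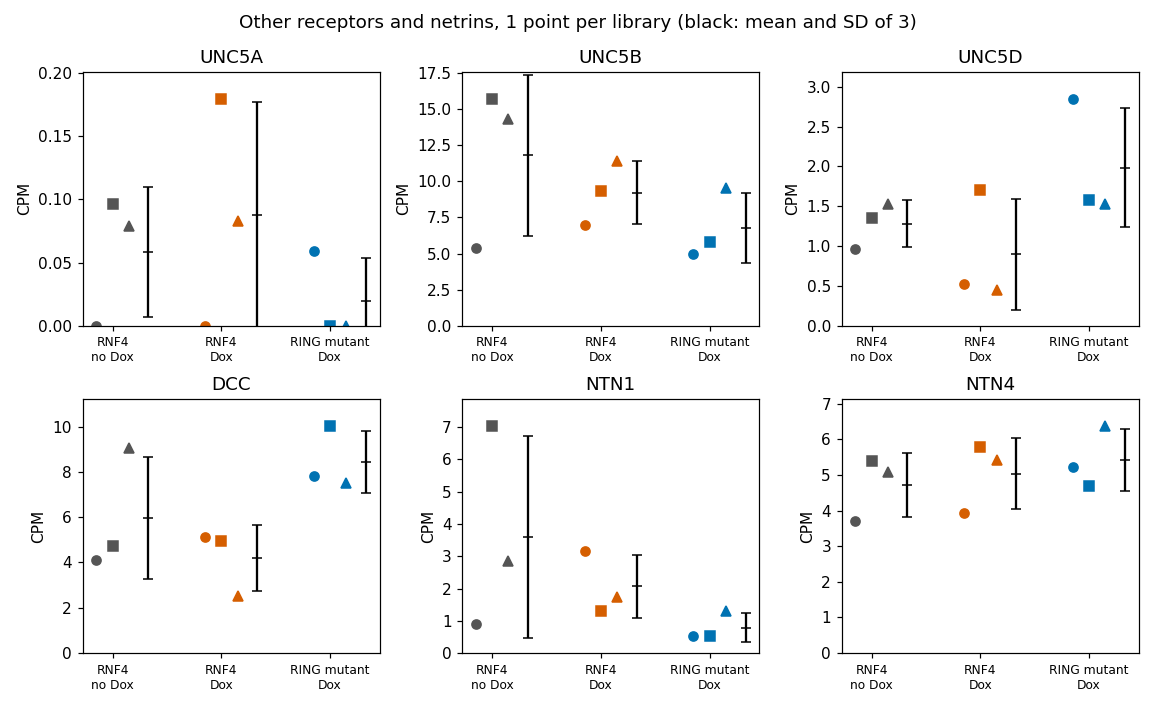
Points give the CPM of UNC5A, UNC5B, UNC5D, DCC, NTN1 and NTN4 in each library (circles T1 to T3, squares T4 to T6, triangles T12 to T14), with the mean and SD of 3 libraries in black and each axis from 0. NTN4 lies between 3.69 and 6.36 CPM in all 9 libraries, NTN1 spreads from 0.889 to 7.03 CPM among the controls, and DCC is lower in RNF4 with Dox than in the RING mutant libraries.

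Per kilobase of annotated exon, the order of the members differed between the groups. Without Dox, UNC5B (1.72 ± 0.816 CPM per kb, SD, n = 3) and NTN4 (1.13 ± 0.216) came first and did not differ beyond their spread. NTN1 (0.563 ± 0.491) and DCC (0.453 ± 0.204) followed, also within their spread, and then UNC5D (0.118 ± 0.0271). UNC5C (0.0560 ± 0.0355), UNC5A (0.0134 ± 0.0118) and UNC5C-AS1 (0.0111 ± 0.0119) came last. With RNF4 and Dox, UNC5C reached 1.05 ± 0.250 and UNC5C-AS1 0.830 ± 0.233 CPM per kb, next to UNC5B at 1.35 ± 0.321 and NTN4 at 1.21 ± 0.236, and these 4 genes overlapped in their spread. NTN1 (0.323 ± 0.152), DCC (0.318 ± 0.110), UNC5D (0.0827 ± 0.0648) and UNC5A (0.0200 ± 0.0206) stood lower. With the RING mutant the order was NTN4 (1.30 ± 0.207), UNC5B (0.989 ± 0.357) and DCC (0.642 ± 0.104), with UNC5C-AS1 (0.306 ± 0.268) and UNC5C (0.297 ± 0.246) widely spread because of T14. UNC5D (0.183 ± 0.0689), NTN1 (0.124 ± 0.0704) and UNC5A (0.00453 ± 0.00785) came after them.

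Across all 18618 genes, 0% were called by adjusted p in the comparison of RNF4 with and without Dox, and 0% in the comparison of RNF4 with the RING mutant, by the Benjamini-Hochberg adjusted quasi-likelihood test of edgeR. At an unadjusted p below 0.05 there were 111 genes in the first comparison, 325 for the RING mutant against RNF4 without Dox and 251 between the Dox-treated groups. DESeq2 called 3, 4 and 1 genes, and edgeR's likelihood ratio test 1, 5 and 3. None of UNC5B, UNC5D, DCC, NTN1 and NTN4 was called in any comparison by these tests.

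The wider netrin pathway was counted from lists of receptors, ligands and signalling partners. Of 9 netrin receptors 6 passed the filter, and their median log2 difference was -0.24 in RNF4 with Dox against without, beside -0.03 over all genes tested. Apart from UNC5C, chosen for this difference, no receptor had an unadjusted p below 0.05 there. NEO1, the DCC relative neogenin, was at 16.3 to 32.8 CPM in the controls and 23.7 to 31.7 CPM with RNF4 and Dox (log2 difference 0.10 ± 0.34). MCAM, a melanoma adhesion molecule that also binds netrin-1, lay between 245 and 333 CPM in all 9 libraries (-0.11 ± 0.20 in the same comparison). Against RNF4 without Dox, the RING mutant group had a receptor median of 0.46, beside -0.04 over all genes.

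Of 11 ligands 10 passed, with medians of 0.04, 0.22 and -0.13 in the comparisons of RNF4 with and without Dox, RING mutant against RNF4 without Dox, and RNF4 against RING mutant with Dox. NTN1 in the second comparison was the only ligand with an unadjusted p below 0.05 in any of them. FLRT2, a membrane ligand of UNC5 receptors, was at 2.74, 3.02 and 3.65 CPM in T1, T4 and T12 and at 2.73, 9.27 and 5.85 CPM in T3, T6 and T14 (log2 difference 0.92 ± 0.49), with T3 inside the control range. RGMB, a ligand of neogenin, lay between 52.4 and 78.3 CPM in all 9 libraries and differed by 0.21 ± 0.18 between RNF4 with and without Dox.

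Of 29 signalling partners 28 passed, and none had an unadjusted p below 0.05 or non-overlapping groups in any comparison. Their medians were -0.01, 0.02 and 0.00 in the same order, beside -0.03, -0.04 and 0.03 over all genes. The smallest p values belonged to PAK1, a kinase activated by RAC and CDC42 (0.20 ± 0.20 in RNF4 with Dox against without), TRIM9, a ubiquitin ligase that binds DCC (-0.32 ± 0.34), and, for the RING mutant against RNF4 without Dox, DAPK1, a kinase tied to UNC5 death signalling (-0.74 ± 0.50), and TRIM9 again (-0.44 ± 0.34). Between the Dox-treated groups they belonged to DAPK1 (0.55 ± 0.50) and SIAH1, a ubiquitin ligase that acts on DCC (0.29 ± 0.33). None of these differences exceeded 1.5 standard errors.

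Other guidance systems were counted for comparison. All 18 other receptors passed, and ROBO2, a receptor for Slit proteins, was the only one with an unadjusted p below 0.05. ROBO2 was at 3.15, 1.73 and 0.589 CPM in T1, T4 and T12, at 2.68, 0.627 and 1.03 CPM with RNF4 and Dox, and at 0.119, 0.525 and 0.341 CPM in the RING mutant libraries. Every RING mutant library was below every library of the other groups, although T6 (0.525 CPM) was close to T12 (0.589 CPM) and T5 (0.627 CPM). Such separation was found for 3.78% of all genes in the second comparison and 4.98% in the third. ROBO2 had log2 differences of -2.40 ± 0.80 for RING mutant against RNF4 without Dox and 2.08 ± 0.80 for RNF4 against RING mutant with Dox. The Benjamini-Hochberg adjusted p values of the quasi-likelihood test of edgeR were 0.99996 and 0.99988. The other receptors named by smallest p were ROBO4 (0.27 ± 0.29) and PLXNB1 (-0.29 ± 0.41) in the first comparison, EPHB2 (0.36 ± 0.27) in the second and NRP1 (-0.34 ± 0.24) in the third.

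Of 17 other ligands 16 passed and none had an unadjusted p below 0.05. SEMA6A, a membrane semaphorin, was at 7.80, 11.1 and 9.90 CPM without Dox and at 7.56, 7.66 and 7.11 CPM with RNF4 and Dox, so the groups did not overlap, although T1 and T5 were close (log2 difference -0.37 ± 0.26). The share of all genes without overlap there was 2.32%. For the RING mutant against RNF4 without Dox the log2 difference of SEMA6A was -0.46 ± 0.27. SLIT2, a ligand of ROBO receptors, differed by -0.74 ± 0.55 and -1.06 ± 0.55 in those comparisons, with T4 at 25.7 CPM against 4.93 in T1 and 13.1 in T12. Between the Dox-treated groups the smallest p values belonged to the ephrins EFNA5 (0.60 ± 0.35) and EFNB2 (-0.38 ± 0.24).

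**Figure D5:**
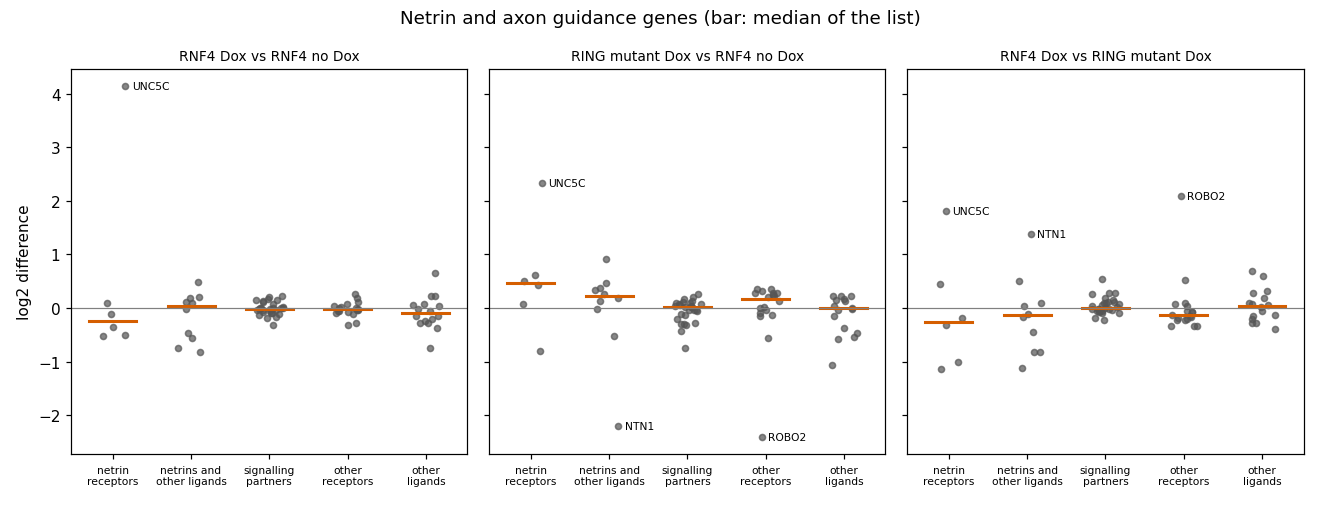
Each point is the fitted log2 difference of a gene of a list, in 3 comparisons, and the bar is the median of the list. UNC5C stands at 4.14 and 2.33 among netrin receptors in the first comparisons, NTN1 at -2.20 and ROBO2 at -2.40 in the second, and the 28 signalling partners lie near 0.

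The genes whose log2 CPM ran most like that of UNC5C over the 9 libraries were sought among the 18617 other genes kept, as a description. UNC5C-AS1 came first, with a Pearson correlation of 0.975. Both genes were chosen for being raised in the same libraries, so that rank was largely set by the choice. DAP3, a mitochondrial ribosomal protein, followed at 0.889, then RAC2, a GTPase of blood cells, at 0.881, S1PR1, a receptor for sphingosine-1-phosphate, at 0.872, and METTL27 at 0.868. Their own ranges over the libraries were narrow beside that of UNC5C, with DAP3 between 151 and 195 CPM, RAC2 between 7.16 and 22.2, S1PR1 between 16.8 and 33.4 and METTL27 between 0.739 and 1.82. RAC2 was at 22.2 CPM in T3 and 7.16 CPM in T14, the RING mutant libraries that were high and low for UNC5C. RNF4 ranked 26 with a correlation of 0.794. As the construct induced in the comparison that led to the choice, its rank is not independent of the choice either. The points share the 9 libraries and their depth, and genes are not independent replicates.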

How the data were processed

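Poly(A) RNA from 9 pools of 2 tumours was made into strand-keeping libraries from 800 ng of RNA and read as single 50-base reads, per the labels' protocols. The values used are raw counts per gene, deposited by the authors. The submitters' processing notes name TopHat2 2.0.13, HTSeq 0.6.0, DESeq2 1.10.1 and GRCh38. The annotation release and strand setting are not given in the sources used here. Log2 differences and adjusted p-values called the authors' come from the authors' deposited tables, which test 16002 genes; which tool made them is not given in the sources used here.

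From the counts, edgeR 4.0.16 (R 4.3.3) kept 18618 genes with filterByExpr, scaled libraries by TMM and fitted 1 mean per group to all 9 libraries. Contrasts were tested with the two-sided quasi-likelihood F-test, and p adjusted by Benjamini-Hochberg over all genes kept. An adjusted p under 0.05 counted as a call. Standard errors are the absolute log2 difference over the square root of F. The most alike genes used log2 CPM with a prior count of 2. Intervals of shares and count ratios are exact, at 95%, and cover counting error only. The p-values measure the spread between pools of tumours.

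Identifiers were joined without version to GENCODE 29, where 52338 of 57820 were found, and promoters came from RefSeq. The named genes are the members, RNF4, the 2 genes of each list with the smallest unadjusted p in each comparison, the 5 genes most alike to UNC5C and every gene kept within 2 Mb of it. NEO1 and MCAM, and single genes among the markers, were named after their values were seen. The members and lists were chosen with earlier results of these data known. Alternatives were RLE factors, no filter, a filter of 1 CPM in 3 libraries, DESeq2 1.42.0, the likelihood ratio test, a block, only the 6 libraries compared, and leaving out each library. The authors' normalised columns were not used.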

Additional observations from a re-analysis of the deposited data

How the results depend on the processing

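The number of genes called moved with the test, in the order RNF4 with against without Dox, RING mutant with Dox against RNF4 without, and RNF4 against RING mutant with Dox. It was 0, 0 and 0 as reported, 3, 109 and 38 without a filter on low counts, 3, 4 and 1 with DESeq2, and 1, 5 and 3 with the likelihood ratio test. RLE factors, the filter of 1 CPM and only the 6 libraries compared gave 0 calls in each. Leaving out 1 library gave 0 to 1 calls in the first comparison, the 1 call without T6, and 0 to 0 in the others. After seeing the data, 2 more alternatives were added. With T6 as the only RING mutant library there were 0 calls in each comparison, and with the 7 libraries other than T1 and T2 there were 0, 1 and 0. UNC5C-AS1 is given no test in the second comparison, because the filter removed it when only the 6 libraries of that comparison were used. The cause of the shifts in the number of calls was not tested.

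The log2 difference of UNC5C kept its direction in all 18 alternatives of each comparison, from 3.80 to 4.64, from 1.83 to 2.88 and from 1.26 to 2.32. The gene was chosen for its direction in the first. UNC5C-AS1 ranged from 5.56 to 6.68, from 3.95 to 5.25 and from 0.852 to 1.93 when 1 library was left out, with the highest values of the first and the second without T12. UNC5B, UNC5D and DCC also kept their directions. NTN1 in the first comparison ranged from -1.26 to 0.11 when 1 library was left out. NTN4 ranged from -0.0477 to 0.239 in the first and from -0.215 to 0.0470 in the third comparison in the same way. NTN4 was at -0.00934 in the second and 0.101 in the third with T6 as the only RING mutant library, and at 0.0351 in the third without T1 and T2.

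The labels' replicate numbers could not be tied to columns, so a block could only use the sets of 3 column numbers, which no label calls a pairing. With this replicate block 0 genes were called, and UNC5C differed by 4.23, 2.20 and 2.03 in the 3 comparisons. UNC5A, with 12 counts, and UNC5C-AS1 in T1 and T14 are limited by depth.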

Other observations

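T14, labelled RING mutant, also stood apart in the pigment genes. PMEL was at 10.2 CPM there and between 0.743 and 2.04 CPM in the other 8 libraries, TYRP1 at 8.13 against 0.205 to 0.909 CPM, and DCT at 6.93 against 0.0684 to 0.593 CPM. SOX10 was at 48.4 CPM in T14, inside the range of the other libraries. Fibroblast markers summed to 4095 CPM in T14 and 3610 in T13, against 666 to 2410 CPM in the other 7. T14 held the least UNC5C and T13 the most. Leukocyte markers summed to 171 CPM in T14 and to between 70.2 and 126 CPM elsewhere. Neuron markers summed to 15.3, 16.7 and 19.2 CPM in T2, T5 and T13, below the 22.8 to 30.2 CPM of the controls and the 21.6 to 31.4 CPM of the RING mutant libraries. Against the controls SNAP25, GAP43 and SYP were lower in all of T2, T5 and T13, and RBFOX3, TUBB3, STMN2 and ELAVL3 overlapped. Against the RING mutant libraries only SNAP25 was lower throughout, and GAP43 was at 3.24 CPM in T14. ELAVL4 was at 0 in all 9 libraries. Over all genes, 2.32% did not overlap in the first comparison and 4.98% in the third. Which cells these marker counts came from, and their part in the values of the netrin genes, were not tested.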
